A study of Homo sapiens with 12 samples.

Results

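The S100 genes encode small calcium-binding proteins, and 10 of them are described here in T47D-MTVL cells, out of 18417 genes with a probe set of their own on the array. They are S100P, S100A4, S100A6, S100A7, S100A8, S100A9, S100A10, S100A11, S100A13 and S100A14. Genes were taken by symbol, and the probe set of a gene was chosen by its mean level over the 12 arrays where there were several. Each of the 10 genes had exactly 1 probe set that named it alone, so this step chose nothing. A further 11 S100 genes on the array were counted as a separate list.

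RNA was measured on microarrays in 4 conditions with 3 arrays each. Cells carried an siRNA against CHD8 and received R5020, carried the same siRNA and received the ethanol vehicle, carried a control siRNA and received R5020, or carried the control siRNA and received vehicle. These conditions are written siCHD8 R5020, siCHD8 EtOH, siCt R5020 and siCt EtOH. All cells were without serum for 48 h, and R5020, a synthetic progestin, was given at 10 nM for 6 h. T47D-MTVL cells derive from a human luminal breast tumour, express progesterone receptor and hold an integrated mouse mammary tumour virus luciferase reporter. CHD8 is a chromatin remodelling ATPase. On these arrays knockdown rests on 1 siRNA against CHD8 in 1 cell line. Effects of its sequence on other transcripts cannot be told apart there from loss of CHD8. The paper reports similar effects of another CHD8 siRNA on several progestin-dependent genes by RT-qPCR, none of them an S100 gene. That measurement came after a shorter R5020 treatment than the 6 h of these arrays.

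S100 proteins carry calcium-binding EF hands and mostly work as dimers. A rise in calcium opens a hydrophobic face that docks on partners such as annexins, cytoskeletal proteins and kinases, and several members are also secreted and act on receptors such as RAGE, the product of AGER. S100P was named for its abundance in placenta. S100A10 differs from most of the family, since its EF hands no longer bind calcium. It stays in the form that holds annexin A2 at the plasma membrane. S100A8 and S100A9 together form calprotectin of neutrophils and keratinocytes, S100A7 is the keratinocyte protein psoriasin, and S100A4 binds non-muscle myosin heavy chain. In the RefSeq gene table of GRCh38.p14, 9 of the 10 genes lie on chromosome 1 in the order S100A10, S100A11, S100A9, S100A8, S100A7, S100A6, S100A4, S100A14 and S100A13, and S100P lies on chromosome 4.

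The 250 bases before the RefSeq start site are shown for the 2 members that changed with the hormone, S100P at chr4:6693628-6693877 (plus strand) and S100A10 at chr1:151993860-151994109 (minus strand), both on GRCh38.p14 and written in the direction of the gene. Capitals mark the letters TATAAA.
S100P: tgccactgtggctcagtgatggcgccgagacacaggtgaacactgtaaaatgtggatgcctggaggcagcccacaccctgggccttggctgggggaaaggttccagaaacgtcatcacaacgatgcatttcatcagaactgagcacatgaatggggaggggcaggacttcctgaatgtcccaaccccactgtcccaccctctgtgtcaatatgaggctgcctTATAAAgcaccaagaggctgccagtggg
S100A10: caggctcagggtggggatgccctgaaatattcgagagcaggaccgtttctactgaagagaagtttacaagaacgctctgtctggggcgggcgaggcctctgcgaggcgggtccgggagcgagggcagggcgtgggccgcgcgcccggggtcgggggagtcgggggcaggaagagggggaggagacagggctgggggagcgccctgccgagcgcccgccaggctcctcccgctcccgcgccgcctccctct
The S100P stretch was 55.6% G or C and held TATAAA at position -28 from the start site. The S100A10 stretch was 71.2% G or C and held no TATAAA.

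Over windows from 250 bases before to 50 after the start site, TATAAA on either strand was found in 11.5% of the 35116 RefSeq promoters. Some genes have several start sites, and the 10 members have 14 windows, of which 7 held it. These were the windows of S100P, S100A4, S100A7 and S100A9, 2 of 3 windows of S100A8, and 1 of 3 of S100A13. The 2 S100A8 windows overlap and hold the same TATAAA, at -29 from 1 start site and -126 from the other. That site is counted in both. The letters TGTTCT are a form of the core of the element that steroid receptors such as the progesterone receptor bind. They were in 14.8% of the windows on either strand and in none of those of the 10 members. The consensus that the paper cites for this receptor, TGTYCY with Y for C or T, is wider. It was not counted over the windows, and the S100P stretch above holds TGTCCC, which matches it. These are descriptions of letters only, and binding was not analysed here.

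The arrays were alike in scale, with medians between 4.52 and 4.62 on the log2 scale, and arrays of 1 condition correlated at 0.986 to 0.993 over all probe sets. The 95th percentile of 360 olfactory receptor probe sets, genes of the nose used here as a measure of background, was a log2 intensity of 3.10. Averaged over 12 arrays, 9 of the 10 members lay above it, and S100A7 lay below it at 2.54. Luminal epithelial markers were above this background for 10 of 10 genes. Of the blood cell markers, 1 of 7 was above it (CD68), while PTPRC, the pan-leukocyte antigen, averaged 1.16. Of the keratinocyte markers, 4 of 9 were above it (KRT5, KRT14, KRT10 and TGM1), and involucrin (IVL) averaged 2.14. Of the fibroblast markers, 5 of 7 were above it. These were COL1A1 at 5.48, COL1A2 at 3.72, COL3A1 at 3.40, PDGFRB at 3.33 and THY1 at 3.17, while DCN and LUM each averaged 1.52.

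The target of the siRNA was checked first. CHD8 had log2 intensities of 4.77, 4.62 and 4.81 in siCHD8 R5020, against 5.52, 5.24 and 5.29 in siCt R5020. With vehicle it had 5.42, 5.11 and 5.04 in siCHD8, against 5.70, 5.71 and 5.91 in siCt. The siCHD8 arrays were lower in both treatments with no overlap, like 15.3% of all probe sets with R5020 and 8.06% with vehicle. They were at 0.653 of the siCt level with R5020 (limma, adjusted p = 0.0627) and 0.669 with vehicle (limma, adjusted p = 0.0711). Neither difference passed an adjusted p of 0.05. Apart from the arrays, the paper reports down-regulation of CHD8 by RT-PCR and by Western blot of the protein. CHD8 also fell with R5020, by 0.46 on the log2 scale in siCHD8 (limma, adjusted p = 0.0258) and by 0.42 in siCt (limma, adjusted p = 0.0349), beside knockdown differences of -0.62 with R5020 and -0.58 with vehicle.

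**Figure D1:**
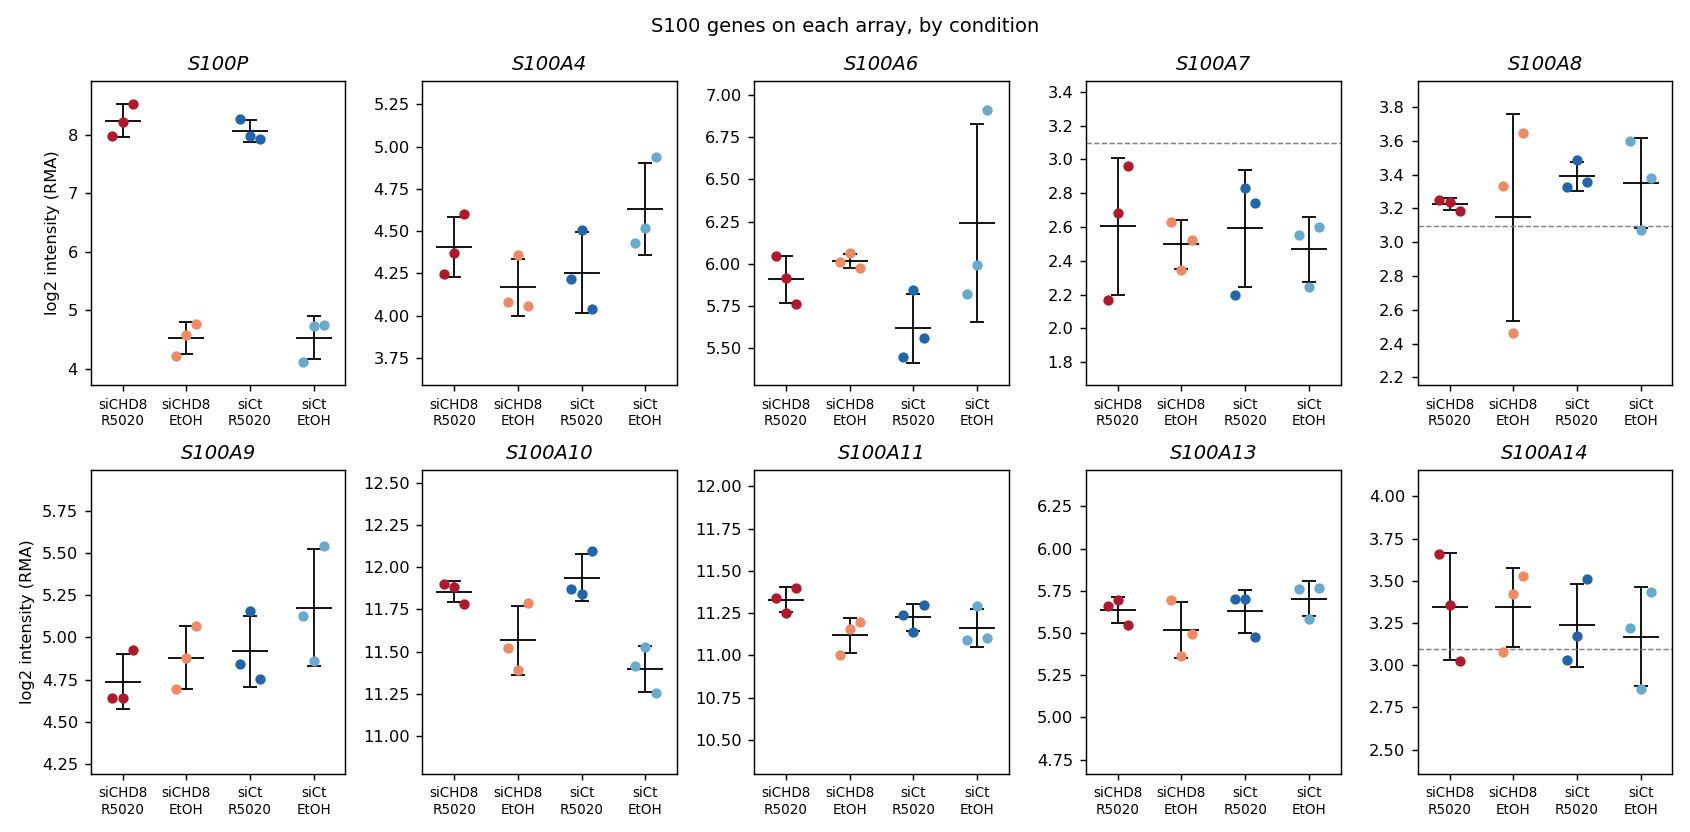
Log2 intensity (vertical axis, a separate range for each gene) of the 10 S100 genes on every array, by condition. Points are arrays, lines and bars are the mean and SD of 3 arrays, and the dashed line, where in range, is the background of 3.10; the R5020 points of S100P lie between 7.93 and 8.53 and its EtOH points between 4.10 and 4.76.

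S100P was the member with a large response to the progestin, and it responded in both siRNA conditions. In siCHD8 cells it had log2 intensities of 7.97, 8.21 and 8.53 with R5020, against 4.22, 4.57 and 4.76 with vehicle. In siCt cells it had 8.27, 7.98 and 7.93 with R5020, against 4.10, 4.73 and 4.74 with vehicle. Every R5020 array lay more than 3 log2 units above every vehicle array. The rise was 3.72 on the log2 scale in siCHD8 (13.2-fold, SE 0.19, limma adjusted p = 7.51e-09) and 3.54 in siCt (11.6-fold, SE 0.19, limma adjusted p = 1.28e-08). Among 21214 probe sets tested, S100P ranked 2 by size of rise in siCHD8 and 3 in siCt. This response was known from an earlier account of the same arrays when the genes were chosen, so it is given as a description.

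Marker genes moved with the same treatment. The mean log2 intensity of the 10 luminal markers was 8.79 to 8.86 per array in siCHD8 R5020, against 9.33 to 9.48 in siCHD8 EtOH. In siCt cells it was 8.84 to 8.92 with R5020, against 9.48 to 9.58 with vehicle. By limma 6 of the 10 fell with R5020 in siCHD8, against 11.5% of all probe sets called, and 7 in siCt, against 14.1%. Of the keratinocyte markers 0 of 9 were called by limma in siCHD8, with 0 at an unadjusted p under 0.05. In siCt 2 of 9 fell, KRT14 by 0.62 (limma, adjusted p = 0.0094) and TGM1 by 0.57 (limma, adjusted p = 0.0102). Of the fibroblast markers COL1A1 fell by 0.39 in siCt (limma, adjusted p = 0.0319), and of the blood cell markers 0 of 7 were called by limma in either condition, with 1 at an unadjusted p under 0.05 in each. The part of these markers in the S100 values was not tested, and in bulk RNA fewer cells of a type and less RNA per cell cannot be told apart.

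S100A10 rose more modestly, and past the threshold in siCt cells. In siCt it had log2 intensities of 11.87, 11.84 and 12.10 with R5020, against 11.41, 11.53 and 11.26 with vehicle, with no overlap. The rise was 0.54 on the log2 scale (1.45-fold, SE 0.12, limma adjusted p = 0.00784). The third siCt vehicle array, at 11.26, held the lowest of the 12 values. Without it the rise was 0.47 (limma, adjusted p = 0.0354). In siCHD8 it had 11.90, 11.88 and 11.78 with R5020, against 11.52, 11.39 and 11.79 with vehicle. There the highest vehicle array reached into the R5020 range, and the difference of 0.29 (SE 0.12, 95% interval 0.02 to 0.55) did not pass (limma, adjusted p = 0.177). The change in siCt cells stayed under a fold of 1.5, so the call is lost where that fold is also asked for. In that case 1 of 10 members, S100P, was called in siCt, against 7.54% of all probe sets with an adjusted p under 0.05, 6.55% with an adjusted p under 0.01 and 7.64% with an unadjusted p under 0.01.

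**Figure D2:**
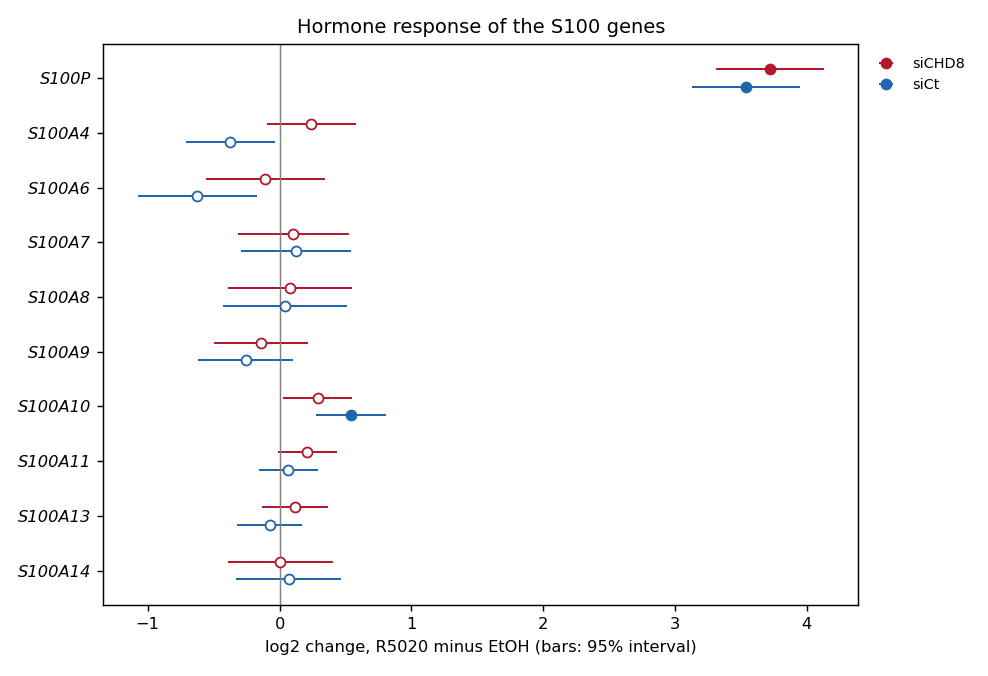
Log2 change for R5020 minus EtOH (horizontal axis) of the 10 S100 genes in siCHD8 and siCt cells, with 95% intervals from the limma fit. Filled points have an adjusted p under 0.05, which holds for S100P in both conditions (3.72 in siCHD8 and 3.54 in siCt) and for S100A10 in siCt (0.54).

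In siCHD8 cells, 1 of 10 members was called at an adjusted p under 0.05, higher with R5020, where 11.5% of all probe sets were called and 6.04% were called higher. In siCt cells, 2 of 10 were called, both higher, against 14.1% of all probe sets and 8.1% called higher. The median change of the members was 0.11 in siCHD8 and 0.05 in siCt on the log2 scale, against -0.02 and -0.05 for all probe sets tested in the same comparisons. Apart from S100P, the changes of the members lay between -0.62 and 0.54 in siCt cells. At an unadjusted p under 0.05 there were 2 members in siCHD8 (22.4% of all probe sets) and 4 in siCt (27.9%). With 10 members, such counts do not set the list apart from the background.

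S100A11, which binds annexin A1, had log2 intensities of 11.34, 11.25 and 11.40 in siCHD8 R5020, against 11.002, 11.16 and 11.20 in siCHD8 EtOH. These arrays did not overlap, yet the difference of 0.21 (95% interval -0.01 to 0.44) did not pass (limma, adjusted p = 0.261). In siCt cells the difference was 0.06 (limma, adjusted p = 0.734). Members with every R5020 array above every vehicle array were S100P and S100A11 in siCHD8, like 13% of all probe sets, and S100P and S100A10 in siCt, like 15.3%.

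S100A6 (calcyclin) and its neighbour S100A4 had lower means with R5020 in siCt cells without passing the test. S100A6 had log2 intensities of 5.45, 5.85 and 5.56 in siCt R5020, against 5.82, 5.99 and 6.91 in siCt EtOH, a difference of -0.62 (SE 0.21, limma adjusted p = 0.0639). The third vehicle array, at 6.91, was the highest of all 12, and without it the difference was -0.29 (limma, adjusted p = 0.208). Leaving out the first or the second siCt vehicle array instead gave -0.83 (limma, adjusted p = 0.0181) and -0.75 (limma, adjusted p = 0.0465). In siCHD8 cells S100A6 differed by -0.11 (limma, adjusted p = 0.844).

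S100A4 had 4.21, 4.51 and 4.04 in siCt R5020, against 4.43, 4.52 and 4.94 in siCt EtOH. The groups overlapped, with a difference of -0.37 (SE 0.16, limma adjusted p = 0.137). In siCHD8 cells the difference was 0.24 (limma, adjusted p = 0.43). S100A9 had 4.84, 5.16 and 4.76 in siCt R5020, against 5.13, 4.86 and 5.54 in siCt EtOH, a difference of -0.26 (limma, adjusted p = 0.341). For S100A4 and S100A9, too, the third siCt vehicle array held the highest of the 12 values. Without it the differences were -0.22 (limma, adjusted p = 0.429) for S100A4 and -0.08 (limma, adjusted p = 0.824) for S100A9.

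The remaining members had small differences, none of which passed. S100A8, the partner of S100A9, differed by 0.08 in siCHD8 and 0.04 in siCt. S100A13, which takes part in the export of fibroblast growth factor 1, differed by 0.12 in siCHD8 and -0.08 in siCt. S100A14 differed by 0.01 in siCHD8 and 0.07 in siCt, and S100A7, dim throughout, by 0.11 in siCHD8 and 0.12 in siCt. The lowest limma adjusted p of these 4 genes was 0.646.

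The hormone response was then compared between the siRNA conditions. No member passed for the difference of the responses, siCHD8 minus siCt, and 0% of all probe sets did. At an unadjusted p under 0.05, there were 1 member (S100A4) and 9.56% of all probe sets. For S100P the responses differed by 0.18 (95% interval -0.40 to 0.76, limma adjusted p = 0.837). The interval for S100A10 ran from -0.63 to 0.12 around -0.25 (limma, adjusted p = 0.643). The call of S100A10 in siCt cells alone is therefore not shown to be a difference between the conditions. S100A4 had the widest gap, 0.61 (95% interval 0.14 to 1.09, limma adjusted p = 0.496), and 0.46 without the third siCt vehicle array.

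**Figure D3:**
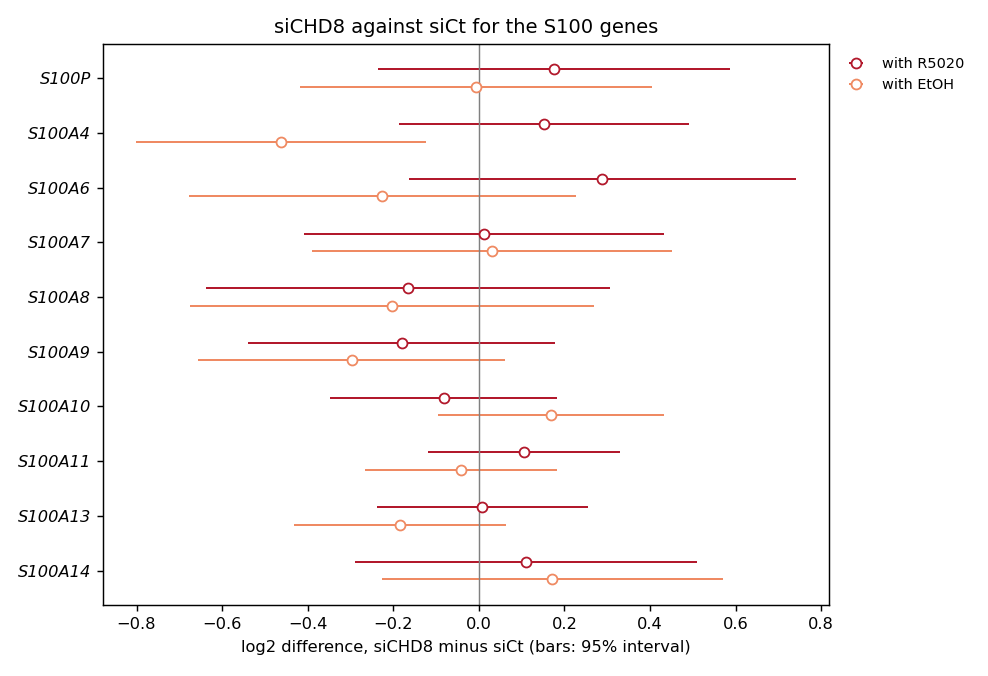
Log2 difference for siCHD8 minus siCt (horizontal axis) of the 10 S100 genes, with R5020 and with EtOH, with 95% intervals from the limma fit. All points are open, meaning that no adjusted p was under 0.05; S100A4 with EtOH lies at -0.46.

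Knockdown of CHD8 left no member past the threshold. With R5020, 0 of 10 members were called, against 0.189% of all probe sets, and with vehicle 0 of 10, against 0.292%. At an unadjusted p under 0.05 there were 0 members with R5020 (13.9% of all probe sets) and 1 with vehicle (12.1%), which was S100A4. S100P differed by 0.17 with R5020 (95% interval -0.24 to 0.59) and by -0.01 with vehicle (95% interval -0.42 to 0.40). The median difference of the members was 0.06 with R5020 and -0.11 with vehicle, against 0.01 and -0.01 for all probe sets.

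S100A4 had 4.08, 4.36 and 4.06 in siCHD8 EtOH, against 4.43, 4.52 and 4.94 in siCt EtOH, and these arrays did not overlap. The difference was -0.46 (95% interval -0.80 to -0.12, limma adjusted p = 0.243), and -0.31 without the third siCt vehicle array (limma, adjusted p = 0.535). With R5020 it was 0.15 (limma, adjusted p = 0.697). The difference with vehicle and the hormone change of S100A4 in siCt rest on the same siCt EtOH arrays. S100A8 with R5020 (15.3% of all probe sets) and S100A4 with vehicle (8.06%) were the only members with every siCHD8 array below every siCt array, and none had them all above. For S100A8 the arrays were 3.25, 3.24 and 3.18 in siCHD8 R5020, against 3.33, 3.49 and 3.36 in siCt R5020, a difference of -0.17 (limma, adjusted p = 0.769) close to the background level of 3.10.

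The 11 other S100 genes gave 0 calls by limma in any of the 5 comparisons. At an unadjusted p under 0.05 there was 1 for the hormone in siCt, where 27.9% of all probe sets passed, and 1 for knockdown with R5020 (13.9%). There were 0 for the hormone in siCHD8 (22.4%), for knockdown with vehicle (12.1%) and for the difference of responses (9.56%). Only S100A1 and S100A16 lay above background. S100A16 had higher R5020 arrays with no overlap, by 0.22 in siCHD8 (limma, adjusted p = 0.465, 13% of all probe sets without overlap in that direction) and 0.41 in siCt (limma, adjusted p = 0.0894, 15.3%). Its siCt EtOH arrays had an SD of 0.40, against 0.05 to 0.09 in the other conditions. S100A1 differed by 0.25 in siCHD8 and 0.32 in siCt, with overlap.

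Partners and receptors of S100 proteins changed with the hormone in both directions. Of 25 listed genes, 23 had a probe set of their own. In siCHD8 cells 3 rose, 5 fell and 15 were not called. In siCt cells 4 rose, 2 fell and 17 were not called. The shares called, 34.8% in siCHD8 and 26.1% in siCt, stand beside the 11.5% and 14.1% of all probe sets, while the list's median changes were -0.01 and 0.05.

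Among these, ANXA2, the annexin that S100A10 holds at the membrane, rose by 0.65 in siCHD8 (limma, adjusted p = 0.00144) and by 0.38 in siCt (limma, adjusted p = 0.04). ANXA1, the annexin bound by S100A11, rose by 0.64 in siCHD8 (limma, adjusted p = 0.0186) and by 1.12 in siCt (SE 0.17, limma adjusted p = 0.000231). The siCt EtOH arrays of ANXA1 had an SD of 0.42, against 0.04 to 0.16 in the other conditions. Both annexins rose in siCHD8 and in siCt. CACYBP, the calcyclin-binding protein named for S100A6, rose by 0.80 in siCt (limma, adjusted p = 0.000645) and differed by 0.16 in siCHD8 (limma, adjusted p = 0.55). That gap between responses, -0.63, did not pass (limma, adjusted p = 0.49).

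ERBB2, the receptor tyrosine kinase, fell by 1.02 in siCHD8 (limma, adjusted p = 3.45e-05) and by 1.22 in siCt (limma, adjusted p = 4.85e-06). SYT1, a calcium sensor of secretion found with S100A13 and fibroblast growth factor 1, fell by 1.34 in siCHD8 (limma, adjusted p = 1.4e-06) and by 1.09 in siCt (limma, adjusted p = 1.06e-05). TRPV6, a calcium channel that S100A10 and annexin A2 bring to the membrane, rose by 0.61 in siCHD8 (limma, adjusted p = 0.00123) and differed by 0.33 in siCt (limma, adjusted p = 0.0542). Named after their values were seen, as the rest of the calls, AHNAK rose in siCt, and CD36, ANXA6 and HLTF fell in siCHD8. Outside those calls, AHNAK differed by 0.39 in siCHD8, and in siCt ANXA6 differed by -0.28, HLTF by -0.05 and CD36 by 0.05. For the difference of responses none of AHNAK, CD36, ANXA6 and HLTF passed, with a lowest limma adjusted p of 0.49 (CD36). CD36 averaged 2.88 over the 12 arrays, below the background of 3.10. Also named after the fact, AGER differed by -0.01 in siCHD8 and -0.18 in siCt, and S100PBP, the S100P-binding protein, by -0.16 in siCHD8 and 0.20 in siCt, none of them called. With knockdown, 0 of the 23 were called by limma in either treatment, with 2 at an unadjusted p under 0.05 with R5020, against 13.9% of all probe sets, and 9 with vehicle, against 12.1%.

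**Figure D4:**
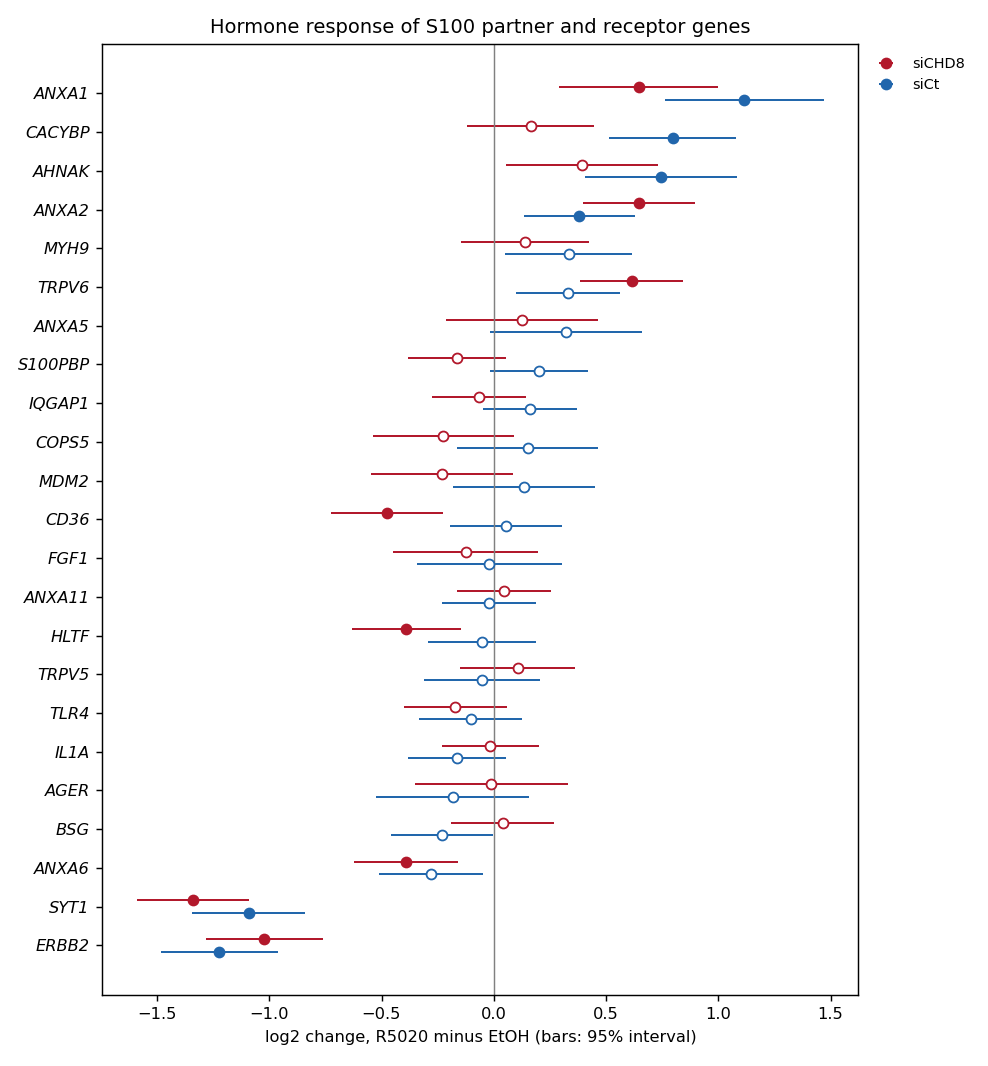
Log2 change for R5020 minus EtOH (horizontal axis) of 23 partner and receptor genes of S100 proteins in siCHD8 and siCt cells, with 95% intervals, ordered by the change in siCt. Filled points have an adjusted p under 0.05; ANXA1 is at the top (0.64 in siCHD8, 1.12 in siCt) and ERBB2 at the bottom (-1.02 in siCHD8, -1.22 in siCt).

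Other EF-hand calcium sensors and buffers were called at about the background share, 12.5% of 24 genes in each siRNA condition. In siCHD8 cells TESC and EFHD1 rose and sorcin (SRI) fell by 0.65 (limma, adjusted p = 0.00185). In siCt cells TESC, EFHD1 and CALU, calumenin of the secretory pathway, rose. SRI differed by -0.29 in siCt (limma, adjusted p = 0.126) and CALU by 0.12 in siCHD8 (limma, adjusted p = 0.727). TESC (tescalcin) rose by 0.58 in siCHD8 (limma, adjusted p = 0.014) and by 1.28 in siCt (limma, adjusted p = 1.31e-05). The gap between its responses, -0.71, did not pass (limma, adjusted p = 0.49). Nor did the gaps of SRI (limma, adjusted p = 0.527) and CALU (limma, adjusted p = 0.608). EFHD1, a mitochondrial EF-hand protein, rose by 0.55 in siCHD8 (limma, adjusted p = 0.00271) and by 0.61 in siCt (limma, adjusted p = 0.000915). None was called for knockdown, with 1 of 24 at an unadjusted p under 0.05 with R5020, against 13.9% of all probe sets, and 1 with vehicle, against 12.1%.

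Genes lying among or within 10 genes of the chromosome 1 members were also counted. RefSeq lists 46, of which 17 had a probe set of their own. In siCHD8 cells 0 were called by limma for the hormone, against 11.5% of all probe sets, with 5 at an unadjusted p under 0.05, against 22.4%. In siCt cells 3 of 17 were called, 17.6% against 14.1% of all probe sets. The median change of the 17 was 0.02 in siCHD8 and -0.22 in siCt, against -0.02 and -0.05 for all probe sets. In siCt ILF2, which encodes an RNA-binding protein, rose by 0.45 (limma, adjusted p = 0.0265), and INTS3, an Integrator subunit, and LINGO4 fell by 0.46 (limma, adjusted p = 0.0162) and by 0.62 (limma, adjusted p = 0.0311).

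The genes most like S100P across the 12 arrays were sought by the root mean square difference of values centred on each gene's mean, with no test. They were TMEM63C (0.341), ACOT6 (0.374), IL20RA (0.394), SLC25A18 (0.443) and NDRG1 (0.452), all on the log2 scale. ACOT6 belongs to the acyl-CoA thioesterases, IL20RA is a receptor chain for interleukin-20 cytokines, and SLC25A18 is a mitochondrial glutamate carrier. With R5020, TMEM63C changed by 3.82 in siCHD8 and 3.59 in siCt, beside 3.72 and 3.54 for S100P. NDRG1, a stress-responsive gene, changed by 2.96 in siCHD8 and 2.81 in siCt, less than S100P in both conditions.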

How the data were processed

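RNA of T47D-MTVL cells was measured on Affymetrix GeneChip Human Gene 1.0 ST arrays, 12 in all, 3 for each of 4 conditions, which the labels call biological replicates. The authors deposited 1 log2 intensity for each probe set and array after RMA, a method that corrects background, quantile-normalizes the arrays and summarises the probes of a set. Tool versions and filters were not found in the labels or methods. Quantile normalization forces a common distribution on all arrays, so a shift of most genes at once would not be seen. Precision is limited by 3 arrays a condition: the median standard error was 0.13 on the log2 scale for a change between conditions and 0.19 for a difference of changes.

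Of 33297 probe sets, 19460 carried 1 gene symbol, 1754 several and 12083 none in the platform annotation; 19429 of the first matched the RefSeq gene table. The 21214 with a symbol were tested. The fit was limma 3.58.1 in R 4.3.3 (lmFit, contrasts.fit, eBayes) with 1 mean per condition, and Benjamini-Hochberg adjustment over those rows. Called means an adjusted p under 0.05. The 5 comparisons were R5020 against EtOH in each siRNA condition, siCHD8 against siCt in each treatment, and the difference of the hormone responses. Data were also simulated over 21214 rows, of which 200 were given a change. For the hormone in siCt, 20.5% of changes of 0.5, 91% of 1 and 100% of 2 were recovered. For knockdown with vehicle the shares were 13%, 91.5% and 100%, and for the difference of responses 0%, 61.5% and 96.5%. In the real data 2992 rows were called for the hormone in siCt, so the simulated shares do not give the recovery of that comparison.

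The members and lists were chosen with earlier results of these data known. The rule for named genes took all 10 members, CHD8, up to 4 genes of each list by adjusted p in the comparison described, and the 5 genes most like S100P. Named beyond it, after their values were seen, were AHNAK, CD36, ANXA6, HLTF, AGER, S100PBP, S100A1 and the markers. RefSeq lists 10 pseudogenes of S100A11 and 2 of S100A7; cross-hybridization was not tested. Promoters are from RefSeq, GRCh38.p14, and all 10 members matched. Python 3.11.15 with pandas 2.3.3 and matplotlib 3.10.9 made the figures. The 26 alternatives covered array scaling, the rows tested, the variance model, weights, the conditions fitted, the replicate number, the threshold, the row per gene and arrays left out.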

Additional observations from a re-analysis of the deposited data

How the results depend on the processing

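The number of members called kept within 1.5 times of its value under all alternatives except 3 for the hormone in siCt. With a fold over 1.5 added to an adjusted p under 0.05, to an adjusted p under 0.01, or to an unadjusted p under 0.01, it was 1 (S100P) in place of 2. With each array left out in turn it was 2 to 3, and with dim probe sets left out it was 3. The added member was S100A6 (-0.62, adjusted p = 0.0443 without dim probe sets). Of 1125 values of single members under alternatives, 1069 kept direction and side of the threshold, 3 passed it anew (all S100A6 in siCt), and 53 changed sign. The lowest adjusted p among those 53 was 0.374. S100P and S100A10 kept their calls under every change of fit or scaling, at log2 3.57 to 3.85 (S100P, siCHD8), 3.33 to 3.67 (S100P, siCt) and 0.46 to 0.60 (S100A10, siCt). The highest limma adjusted p of S100A10 in siCt among them was 0.048, close to the threshold. The cause of the sign changes was not tested.

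Changes of sign for knockdown with vehicle were as follows. S100P gave 0.012 after median centring, 0.026 after a further quantile normalization, 0.14 with array weights and 0.25 without a pair of arrays, siCHD8 EtOH replicate 1 and siCt EtOH replicate 3, and -0.22 to 0.14 with each array left out. S100A6 gave 0.11 without that pair and -0.44 to 0.11 with each left out. S100A7 gave -0.010 with weights and -0.080 to 0.11 with each left out. S100A8 gave -0.45 to 0.14 and S100A11 gave -0.080 to 0.024 with each left out, and S100A11 gave 0.0070 after quantile normalization.

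For knockdown with R5020, S100A7 gave -0.071 after quantile normalization and -0.19 to 0.23 with each array left out, and S100A14 gave -0.045 to 0.27. S100A13 gave -0.0037 after median centring, -0.0089 with weights and -0.067 to 0.053 with each left out.

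For the hormone in siCHD8 with each array left out, S100A7 gave -0.075 to 0.32, S100A8 gave -0.27 to 0.33 and S100A14 gave -0.15 to 0.17, with -0.033 under weights and -0.13 without that pair. In siCt, S100A8 gave -0.099 to 0.16 and S100A14 gave -0.089 to 0.20.

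For the difference of the responses, S100P gave -0.076 without that pair. S100A7 gave 0.055 with weights and -0.22 to 0.20 with each left out. S100A8 gave -0.043 after quantile normalization and -0.31 to 0.29 with each left out. S100A9 gave -0.0029 with weights, -0.16 without that pair and -0.067 to 0.28 with each left out, and S100A14 gave -0.22 to 0.10.

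The values showed no sign of pairing by replicate number. Deviations of same-numbered arrays correlated at -0.25 to 0.20 over 18 pairs and those of other arrays at -0.23 to 0.25 over 36. Whether same-numbered arrays were handled together is not given in the labels or methods. With the number as a replicate block, 1 member was called for the hormone in siCHD8, 2 in siCt and 0 in the other 3 comparisons. With dim probe sets left out (13514 tested), S100A7, S100A8 and S100A14 could not be fitted.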
